A study of Mus musculus with 12 samples.

Results

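Akt and mTOR growth signalling was followed through 10 genes that run from the insulin receptor's docking protein to the translation machinery: Irs1, Akt1, Akt2, Tsc1, Tsc2, Mtor, Rptor, Rictor, Eif4ebp1 and Rps6kb1. Members were all probe sets whose platform annotation names exactly 1 of these genes, and each probe set was kept apart. This gave 26 probe sets of 9 genes, out of 18193 genes with a probe set of their own. Rps6kb1, a kinase that mTOR complex 1 activates, was not analysed here. A probe set is the group of short oligonucleotides that an Affymetrix array uses to read 1 transcript or several related ones.

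RNA came from gastrocnemius, the main calf muscle, of 12 male mice, with 1 array per mouse. 6 mice of line 3 showed mini-muscle, a heritable trait in which hindlimb muscles are unusually small, and 6 mice of line 8 had muscles of regular size. Both lines had been bred for high voluntary wheel running, and all mice were of generation 37 with a mean age of 84 days (79 to 86). Both limbs' muscles were combined for a mini-muscle mouse, whereas 1 limb was taken from a mouse with regular muscle. Phenotype, line and the pooling of limbs divide the arrays in the same way and cannot be told apart, and 1 line stands for each phenotype. All levels are log2 of MAS5 intensities, differences are the mini-muscle mean minus that of regular muscle, and n = 6 arrays in each group throughout.

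In this pathway insulin or insulin-like growth factor 1 acts on its receptor, IRS proteins recruit phosphoinositide 3-kinase (PI3K), and the lipid it makes brings Akt to the membrane. Akt phosphorylates the TSC complex of Tsc1 and Tsc2 and relieves its brake on the GTPase Rheb, which switches on mTOR complex 1 (mTORC1) at the lysosome. In skeletal muscle this route is known for raising protein synthesis and fibre size, and for insulin-driven glucose uptake. The arrays read transcript levels and not the phosphorylation through which these proteins signal.

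Transcripts for the Akt2 isoform, for the mTOR kinase and its mTORC1 scaffold Rptor, for Tsc2 and for the translation repressor Eif4ebp1 were higher in mini-muscle. The difference was between 1.30-fold and 2.36-fold at the probe sets that passed the test. Akt1, Rictor, Tsc1 and Irs1 did not pass at any probe set. Of the 26 probe sets, 6 were called higher and 0 lower (limma, Benjamini-Hochberg adjusted p under 0.05 over all 45037 probe sets), where 3.87% of all probe sets were called higher and 3.25% lower (7.12% either way). All 6 were among the 16 member probe sets brighter than the median probe set (log2 7.62), where 7.31% of all such probe sets were called higher and 6.24% lower (13.6% either way). None of the 10 dimmer ones passed, and of all dimmer probe sets 0.426% were called higher and 0.262% lower (0.688% either way). At each gene's brightest probe set, 4 of 9 members were called higher and 0 lower, beside 5.84% and 4.56% of all genes. All 9 are brighter than the median, so the shares of 7.31% and 6.24% are closer to like. With dim genes left out and 1 probe set per gene, 5 members were called, beside 2427 of 9096 genes. The median difference over the 9 brightest probe sets was 0.34, beside 0.02 over the brightest probe sets of all genes. Mini-muscle and regular arrays did not overlap at 2 of the 26 probe sets, beside 4.66% of all probe sets (8.9% of brighter and 0.413% of dimmer ones), and at 1 of the 9 brightest probe sets, beside 6.91% of all genes. Without the intensity trend in limma's variance model the calls of Akt2 held and the other 4 were lost (adjusted p = 0.19 for Mtor, 0.087 for Rptor, 0.11 for Tsc2 and 0.10 for Eif4ebp1).

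**Figure D1:**
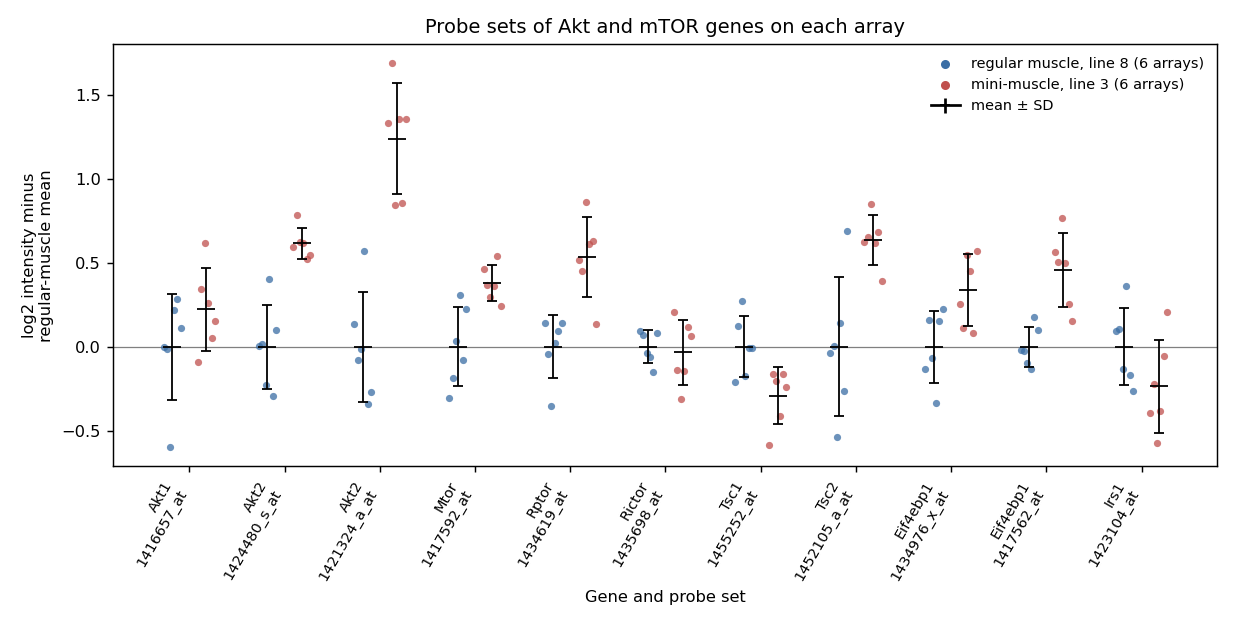
Log2 intensity of each array minus the regular-muscle mean of the same probe set, for the brightest probe set of each measured gene and any other probe set that was called. Points are arrays and bars are the mean ± SD of 6 arrays. The 2 left-hand Akt2 groups of mini-muscle points lie wholly above the regular-muscle points, whereas the groups of every other probe set drawn overlap, called or not.

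Several properties of the samples moved with the groups and were measured beside these genes. All 10 skeletal muscle markers were brighter than the median, whereas 0 of 3 measured liver markers were. Of the muscle markers, 5 were called lower in mini-muscle (Myh4 by -1.33, Pvalb by -0.41, Actn3 by -0.36, Mylpf by -0.33 and Tnnt3 by -0.29) and 1 higher (Myh1, 0.29). Their summed intensity was log2 20.18 to 20.40 in mini-muscle and 20.43 to 20.73 in regular muscle, without overlap. Of 4 heart markers 1 was brighter than the median, the myosin heavy chain Myh6, and it was called higher in mini-muscle. Among markers of other cells, 5 of 7 fibroblast genes were called lower in mini-muscle. Their summed intensity was log2 14.69 to 15.50 in mini-muscle and 15.54 to 16.16 in regular muscle. 1 of 5 macrophage genes was called lower (summed log2 11.57 to 11.77 against 11.78 to 12.43) and 1 of 3 satellite cell genes, Myf5, higher. The summed satellite cell markers overlapped (10.08 to 10.73 against 9.81 to 10.59), and Pax7 (-0.67, a dim probe set) and Cdh15 (0.17) were not called. None of the measured endothelial, adipocyte, smooth muscle, Schwann cell and blood markers was called. The 3′ to 5′ intensity ratio of Gapdh, a sign of RNA integrity, was 0.875 to 0.937 in mini-muscle and 0.847 to 0.904 in regular muscle (exact permutation test, two-sided, p = 0.013). That of Actb overlapped widely (p = 0.27, same exact test). The part of these differences in the results for Akt and mTOR genes was not tested. In whole muscle, fewer cells of a type and less RNA per cell cannot be told apart.

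Upstream of Akt, Irs1 was read by 1 probe set (1423104_at). Irs1 is the docking protein that links the insulin and insulin-like growth factor receptors to PI3K. Its log2 intensity was 12.45, 12.72 and 13.23 (lowest, median and highest) in mini-muscle and 12.77, 13.01 and 13.39 in regular muscle. The groups overlapped over most of their range. The difference was -0.24 with a 95% interval of -0.49 to 0.02 (SE 0.12, limma adjusted p = 0.34), so the interval reaches from 0.49 lower to slightly higher.

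Akt2 is the Akt isoform best known for insulin-stimulated glucose uptake in muscle and fat, and Akt1 is the widely expressed isoform tied to body growth. The brightest Akt2 probe set, 1424480_s_at, lay at 11.94, 12.03 and 12.21 (lowest, median and highest) in mini-muscle. In regular muscle it lay at 11.13, 11.43 and 11.82. Every mini-muscle array was above every regular-muscle array. The difference was 0.62 (SE 0.11, 1.53-fold, limma adjusted p = 7.6e-04). The second probe set, 1421324_a_at, lay at 10.33, 10.83 and 11.18 in mini-muscle and at 9.14, 9.44 and 10.05 in regular muscle, again without overlap. It differed by 1.24 (SE 0.17, 2.36-fold, limma adjusted p = 8.4e-05). The third, 1455703_at, is dimmer and its groups overlapped, at 8.23 to 9.48 in mini-muscle and 8.65 to 9.70 in regular muscle. Its difference was -0.07 (95% interval -0.61 to 0.48, limma adjusted p = 0.94).

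The 3 Akt2 probe sets therefore did not give the same size of change. The within-array ratio of 1424480_s_at to 1421324_a_at was lower by 0.62 on the log2 scale in mini-muscle. That was the 1 of 17 within-gene comparisons of the brightest with another probe set that passed (two-sided exact permutation test, p = 0.0022, the smallest that 924 assignments of arrays allow, adjusted p = 0.037). It had adjusted p = 0.074 both after quantile normalization and with an offset of 64 before log2 (same exact permutation test). The ratio of 1424480_s_at to 1455703_at was 0.68 higher and did not pass (exact permutation test, adjusted p = 0.12). The number of within-gene comparisons that passed was 0 without regular-muscle replicate 1, 3, 4, 5 or 6, and 3 without replicate 2. By the array maker's naming, _a_at sets match several transcripts of a gene, and _s_at sets can also match other genes. RefSeq lists 4 separate start sites for Akt2 in the table used here.

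Akt1 was read by 4 probe sets, none of them called. The brightest, 1416657_at, was 10.03, 10.32 and 10.73 (lowest, median and highest) in mini-muscle and 9.52, 10.17 and 10.40 in regular muscle. The groups overlapped, and regular-muscle replicate 3 was the lowest array. The difference was 0.22 (95% interval -0.10 to 0.55, limma adjusted p = 0.54). The other probe sets differed by 0.30 (1425711_a_at), -0.01 (1440950_at) and 1.39 (1442759_at). The last is a dim set at a mean of 5.71, with an unadjusted p = 0.0498 and adjusted p = 0.29 in limma.

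The unequal change of the 2 isoforms was tested on each array's log2 ratio of the brightest Akt2 to the brightest Akt1 probe set. Only the difference of a ratio between groups is compared, since its level depends on the probe sets. The ratio differed by 0.39 between the groups (95% interval 0.04 to 0.74). It lay at 1.31 to 1.99 in mini-muscle and 0.73 to 1.68 in regular muscle, which overlap. The difference passed the two-sided exact permutation test (p = 0.024, adjusted p = 0.024 over the 3 ratios tested). Without mini-muscle replicate 1 it was 0.33 and did not pass (same exact permutation test, adjusted p = 0.058). Averaging a gene's probe sets before taking the ratio gave 0.12 (exact permutation test, adjusted p = 0.69).

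The TSC complex pairs Tsc1, or hamartin, which stabilises the complex, with Tsc2, or tuberin, which carries the activity that turns Rheb off. Tsc2 had 1 probe set, 1452105_a_at, at 11.17, 11.42 and 11.63 (lowest, median and highest) in mini-muscle. In regular muscle it was at 10.25, 10.77 and 11.47. The mini-muscle arrays were tight (SD 0.15), and among regular-muscle arrays (SD 0.41) replicate 6 reached the mini-muscle range while the other 5 lay below it. Tsc2 was 1.56-fold higher (log2 0.64, SE 0.15, limma adjusted p = 0.012). In the RefSeq table Tsc2 overlaps the end of its neighbour Pkd1 by 699 bases, and 3 bases separate its start from that of Nthl1.

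Tsc1 was read by 3 probe sets. The brightest, 1455252_at, was at 10.78, 11.15 and 11.21 in mini-muscle and at 11.16, 11.36 and 11.64 in regular muscle (lowest, median and highest). Its difference was -0.29 (95% interval -0.52 to -0.07) and did not pass after adjustment over all probe sets (limma adjusted p = 0.13). The other 2 sets are below the median brightness and differed by 0.84 (95% interval -0.66 to 2.33) and -0.14 (-1.83 to 1.55). The within-array ratio of Tsc1 to Tsc2 was at 0.26 to 1.39 on 5 regular-muscle arrays and -0.11 on replicate 6. All mini-muscle arrays were at -0.62 to -0.04. The ratio was 0.93 lower in mini-muscle on the log2 scale (exact permutation test, two-sided, p = 0.0043, adjusted p = 0.0097). With each gene's probe sets averaged first the difference was -0.50 (exact permutation test, adjusted p = 0.42).

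**Figure D2:**
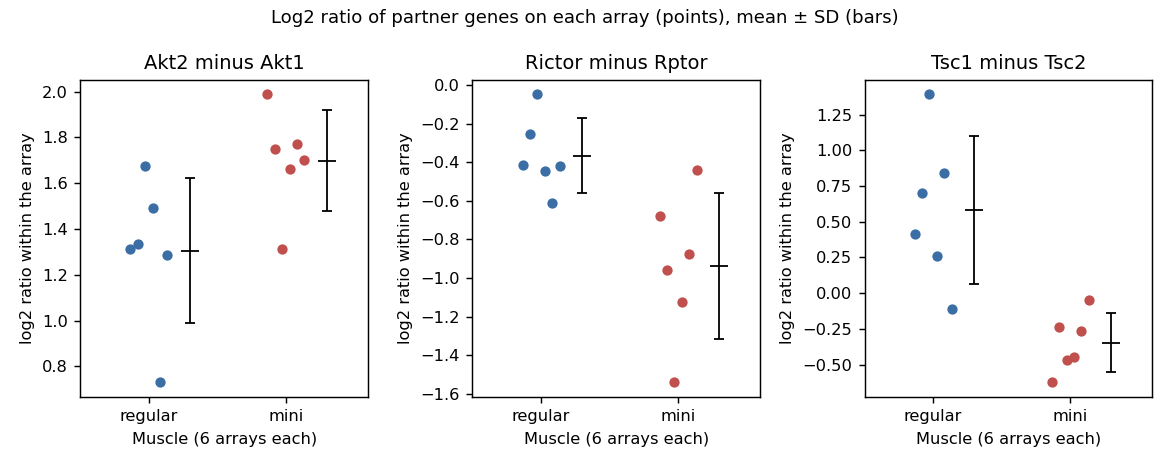
Within-array log2 ratio of the brightest probe sets of 3 pairs of partner genes, with 6 arrays per group as points and the mean ± SD as bars. Akt2 over Akt1 is higher in mini-muscle, and Rictor over Rptor and Tsc1 over Tsc2 are lower, with overlap of the groups in each panel.

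Mtor encodes the kinase shared by both mTOR complexes. Its brightest probe set, 1417592_at, lay at 11.59, 11.71 and 11.89 (lowest, median and highest) in mini-muscle and at 11.04, 11.33 and 11.66 in regular muscle. The lower end of the mini-muscle arrays, replicates 3 and 6, lay inside the regular-muscle range. Mtor was 1.30-fold higher (log2 0.38, SE 0.11, limma adjusted p = 0.035). The call was lost after centring arrays on their medians (adjusted p = 0.12) and without any 1 of mini-muscle replicates 1, 2, 4 and 5 or regular-muscle replicates 1, 2, 3 and 5 (adjusted p = 0.054 to 0.089, differences 0.32 to 0.39). The second probe set, 1436267_a_at, differed by 0.24 (95% interval -0.15 to 0.63) and the dim 1446185_at by -0.22 (95% interval -1.96 to 1.51), neither of them called.

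Rptor, or raptor, is the scaffold that defines mTORC1 and presents its substrates. Its brightest probe set, 1434619_at, was at 10.43, 10.86 and 11.16 in mini-muscle and at 9.94, 10.35 and 10.43 in regular muscle (lowest, median and highest). The groups touched at 10.43, between mini-muscle replicate 6 and the highest regular-muscle arrays. Rptor was 1.45-fold higher (log2 0.54, SE 0.13, limma adjusted p = 0.012). The dim probe set 1430784_a_at gave 1.92 from a regular-muscle mean of 5.11 (SE 0.66, limma adjusted p = 0.096), and the dim 1458472_at gave -0.44 (SE 0.85). Rptor lies on chromosome 11, as does Myh4, the type IIb myosin gene, with 997 other protein-coding genes between them in the RefSeq order. The other 8 measured members lie on 8 other chromosomes.

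Rictor is the scaffold that defines mTOR complex 2, the complex that phosphorylates Akt. It had 5 probe sets, none of them called. The brightest, 1435698_at, was at 9.62, 9.89 and 10.14 in mini-muscle and at 9.78, 9.94 and 10.02 in regular muscle (lowest, median and highest), so that the regular-muscle arrays lay inside the mini-muscle range. The difference was -0.03 (95% interval -0.31 to 0.24, limma adjusted p = 0.94). The other 4 sets lie below the median brightness, and their differences ran from -1.05 to -0.20. The largest of them in size, at 1453775_at, had a 95% interval of -1.90 to -0.20 and limma adjusted p = 0.16.

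The ratio of Rictor to Rptor on each array was therefore unequal between the groups. It was at -1.54 to -0.44 in mini-muscle and at -0.61 to -0.05 in regular muscle, and 0.57 lower in mini-muscle on the log2 scale (95% interval -0.96 to -0.18). It passed the two-sided exact permutation test (p = 0.0065, adjusted p = 0.0097). With probe sets averaged per gene it was -1.08 and did not pass (exact permutation test, adjusted p = 0.17).

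The bases just before the start of the mTOR kinase gene, of each complex's scaffold gene and of Akt2 are shown because these genes carry the contrast above. They come from RefSeq (GRCm38.p6), all on the plus strand, 150 bases ending at the outermost listed start: chr4:148448432-148448581 for Mtor, chr11:119602755-119602904 for Rptor, chr15:6708199-6708348 for Rictor and chr7:27591402-27591551 for Akt2. Capitals mark matches on either strand to GGGCGG (the GC box of Sp factors) and CCAAT (bound by NF-Y).
Mtor: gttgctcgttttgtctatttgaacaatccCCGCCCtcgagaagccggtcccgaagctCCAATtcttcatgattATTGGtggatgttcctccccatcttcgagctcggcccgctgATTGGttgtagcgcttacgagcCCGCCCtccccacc
Rptor: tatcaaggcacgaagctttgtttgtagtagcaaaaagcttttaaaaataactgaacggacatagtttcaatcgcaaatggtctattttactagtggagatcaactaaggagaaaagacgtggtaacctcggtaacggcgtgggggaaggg
Rictor: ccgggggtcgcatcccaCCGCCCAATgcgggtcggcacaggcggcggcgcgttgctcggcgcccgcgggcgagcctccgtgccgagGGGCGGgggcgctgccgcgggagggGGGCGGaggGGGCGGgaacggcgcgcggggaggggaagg
Akt2: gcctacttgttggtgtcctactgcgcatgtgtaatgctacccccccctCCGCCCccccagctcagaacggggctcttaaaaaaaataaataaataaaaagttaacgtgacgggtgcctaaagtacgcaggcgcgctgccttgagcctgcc
Mtor held 2 GC boxes and 3 CCAAT boxes, Rictor 4 and 1, and Akt2 1 GC box, while neither motif was found in the Rptor stretch. In Rictor the first GC box and the CCAAT box share bases. Of 32851 RefSeq stretches of this length, 24.5% held CCAAT on either strand and 28.6% held the GC box. The ETS core CGGAAG (in 10.4% of stretches), the E-box CACGTG (in 4.30%) and the FoxO motif GTAAACA (in 1.80%) were searched on both strands as well and were not found in these 4. G and C made up 83.3% of the Rictor stretch, 56.0% of that of Mtor, 53.3% of that of Akt2 and 41.3% of that of Rptor, where the median of all stretches was 54.0%. The Rptor stretch held none of the searched motifs, so it could share none with Mtor, Rictor or Akt2. A match is a description of the letters and not of a factor bound there.

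Eif4ebp1 encodes 4E-BP1, which holds the cap-binding factor eIF4E until mTORC1 phosphorylates it. Its probe set 1417562_at was at 11.96, 12.31 and 12.57 (lowest, median and highest) in mini-muscle and at 11.67, 11.78 and 11.98 in regular muscle. Only the lowest mini-muscle array, replicate 6, reached the regular-muscle range. Eif4ebp1 was 1.37-fold higher there (log2 0.46, SE 0.10, limma adjusted p = 0.0063). The Eif4ebp1 probe set 1434976_x_at, the brightest, whose class can match related sequences, was at 12.47, 12.74 and 12.96 in mini-muscle and 12.06, 12.43 and 12.61 in regular muscle. It differed by 0.34 and did not pass (SE 0.11, limma adjusted p = 0.078). It passed after quantile normalization (adjusted p = 0.037), with dim genes left out and 1 probe set per gene (0.032; 0.0501 with dim probe sets left out alone) and without mini-muscle replicate 5 (0.047, difference 0.39). The third, 1417563_at, differed by 0.41 (95% interval -0.16 to 0.98).

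**Figure D3:**
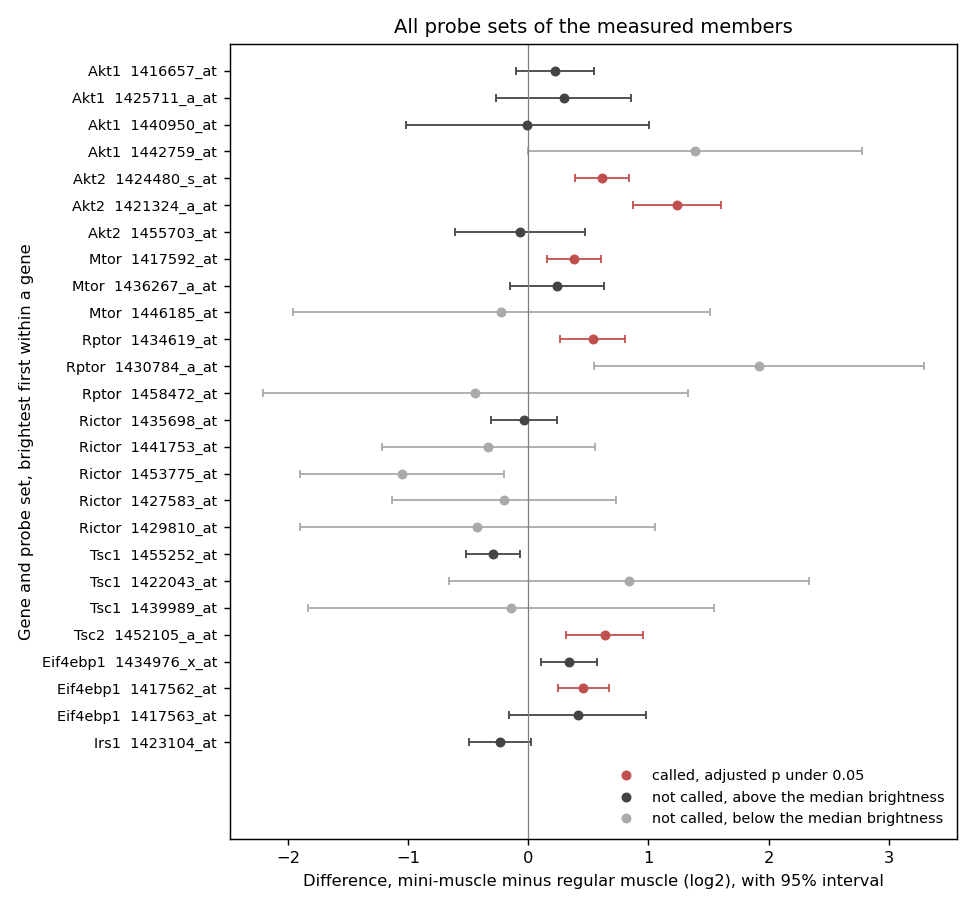
Difference in log2 intensity with its 95% interval for all 26 probe sets, ordered by gene and then by brightness. The 6 called sets lie between 0.38 and 1.24, and intervals of sets below the median brightness are wider than those of the called sets.

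The arrays also varied within each group. Mini-muscle replicate 6 was the lowest of its group for Mtor, Rptor, Tsc2 and Eif4ebp1 at the probe sets called. After subtracting each group's mean, the Pearson correlation between brightest probe sets over the 12 arrays had a median of -0.01 over 36 pairs of members. It ran from -0.59 (Akt1 with Rictor) to 0.66 (Akt1 with Rptor). By the same measure, the genes most like the brightest Akt2 probe set among 19393 bright single-gene probe sets were the creatine transporter Slc6a8 (r = 0.93), Aff1 (0.90) and Map1a (0.89). Those most like 1421324_a_at were the collagen-modifying enzyme P4ha1 (0.95), Nqo2 (0.92) and Nudt13 (0.91). Those most like Eif4ebp1 at 1417562_at were Pgm5 (0.92), Septin4 (0.89) and Dele1 (0.89). The 2 Akt2 probe sets thus had different nearest genes. These values describe 12 arrays and carry no test.

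Around the members, 87 of 92 other genes of the pathway were measured at a probe set of their own, and each was read at its brightest one. Of these, 8 were called higher, 9 lower and 70 not, or 19.5%, beside 10.4% of all genes at their brightest probe set. The latter share covers dim genes too, whereas most of the 87 were brighter than the median probe set. Of all brighter probe sets 13.6% were called. The median difference of the 87 genes was 0.06, beside 0.02 over all genes. Without the intensity trend 6 calls held (Ddit4l, Lamtor1, Sesn3, Rragd, Eef2 and Gsk3a) and the other 11 were lost. Once dim probe sets were left out 21 were called, beside 3714 of all 22518 probe sets then tested. Grb14, Trib3 and Gsk3b, described next, passed there and were not called in the fit of all probe sets. With dim genes left out and 1 probe set per gene, 2427 of the 9096 genes tested were called. Of the other pathway genes 22 were called then, Mapkap1 among them. The remaining listed genes were not analysed here.

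Between the receptor and Akt, 3 of 13 genes were called higher and 0 lower. Pik3r1, the regulatory subunit of PI3K, rose by 0.65 (SE 0.15, limma adjusted p = 0.0071), with 0.44, 0.07 and 1.62 at its other probe sets, none of them called (adjusted p = 0.10 for the last, which is below the median brightness). Pik3r3, a related subunit, rose by 0.57 (limma adjusted p = 0.013). Pdpk1, the kinase that activates Akt, rose by 0.40 (limma adjusted p = 0.0095), a call lost after median centring (0.068), with 0.23 at its other probe set, not called. The adaptor Grb14, which restrains the insulin receptor, differed by 0.49 (limma adjusted p = 0.056), and it passed without regular-muscle replicate 3 (0.036) or 5 (0.047). A dim second probe set gave -1.54 (adjusted p = 0.39). Of 10 genes that oppose PI3K and Akt, 1 was called. Inppl1, the lipid phosphatase SHIP2, rose by 0.88 (SE 0.23, limma adjusted p = 0.020), with adjusted p = 0.0509 to 0.0523 and differences of 0.83 without mini-muscle replicate 2 or 5 or regular-muscle replicate 2. Trib3, a pseudokinase that binds Akt, differed by 0.97 (limma adjusted p = 0.067), and by 1.78 at its dimmer probe set, which passed (adjusted p = 0.013). The brightest Trib3 probe set passed without mini-muscle replicate 2 (1.17, limma adjusted p = 0.018) or regular-muscle replicate 6 (1.12, 0.036). Inpp5k (0.13, with 0.05 and 1.25 at other probe sets) and the dim Trib1 (0.49 and 1.34) did not pass.

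Among 9 partners of the mTOR complexes, counting the complex 2 target Sgk1, 0 were called higher and 2 lower, while their median difference was 0.21. Mtor and Rptor were called higher, and no test against them was run. Sgk1, a kinase that mTOR complex 2 activates, fell by 0.48 (SE 0.10, limma adjusted p = 0.0034), a call lost after median centring (0.076). Tti1, which helps assemble the complexes, fell by 0.37 (limma adjusted p = 0.026). That call was lost after median centring (0.13), and without any 1 of mini-muscle replicates 1 and 2 or regular-muscle replicates 1, 3 and 5 (0.0502 to 0.066). Mapkap1, or Sin1 of complex 2, differed by 0.35 (limma adjusted p = 0.10; 0.033 without mini-muscle replicate 4 and 0.048 without regular-muscle replicate 4). Its other probe set gave -0.26 (adjusted p = 0.65). Akt1s1, the mTORC1 inhibitor PRAS40, differed by 0.24 (limma adjusted p = 0.17), and by -0.07 and -0.17 at its other probe sets. In the Rheb branch 2 of 5 genes were called lower. Ddit4l, or REDD2, an inhibitor of mTORC1 that acts through TSC, fell by 0.89 (SE 0.07, 1.85-fold, limma adjusted p = 1.1e-07) and by 1.02 and 1.24 at its other probe sets, both called. Its relative Ddit4 differed by 0.36 (limma adjusted p = 0.45). Rheb fell by 0.30 (limma adjusted p = 0.036). Its call ended after quantile normalization (0.11), after median centring (0.29) and without any 1 of mini-muscle replicates 1, 2, 4 and 6 or regular-muscle replicates 2, 3, 4 and 5 (0.0504 to 0.097). Tbc1d7, the third TSC subunit, differed by -0.26 (limma adjusted p = 0.32), and by 0.24 at its other probe set.

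At the lysosome, where amino acids recruit mTORC1, 2 of 24 genes were called higher and 2 lower. Lamtor1, the membrane anchor of the Ragulator complex, rose by 0.97 (SE 0.13, limma adjusted p = 7.2e-05), but its other probe sets gave 0.18 and 0.26 and were not called. Sesn3, a sestrin that restrains mTORC1, rose by 0.91 (SE 0.15, limma adjusted p = 3.5e-04) and by 1.10 at its second probe set, also called. The Rag GTPase Rragd fell by 0.77 (SE 0.09, limma adjusted p = 6.9e-06), with -0.77 and -0.04 at its other probe sets, the first of them called. Fnip1, a folliculin partner, fell by 0.60 (limma adjusted p = 0.011; 0.063 after median centring), with -0.14 and -0.56 at probe sets that did not pass.

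Of 13 measured translation outputs of mTORC1, 1 was called in each direction. Eef2, the elongation factor that moves the ribosome, rose by 0.49 (SE 0.08, limma adjusted p = 3.5e-04). Its other probe set, a dim one, differed by 0.11 and did not pass (SE 0.996, limma adjusted p = 0.98). Eif4e, the cap-binding protein that 4E-BP1 holds, fell by 0.38 (SE 0.08, limma adjusted p = 0.0041; 0.086 after median centring), while its other 3 probe sets differed by -0.06, 0.18 and -0.06 and did not pass. Maf1 (-0.17) and Rrn3 (-0.18), regulators of ribosomal and transfer RNA synthesis, did not pass. Of 13 other outputs of Akt and mTORC1, 1 was called higher and 2 lower. Gsk3a, a glycogen synthase kinase that Akt inhibits, fell by 0.65 (SE 0.11, limma adjusted p = 3.6e-04). Gsk3b differed by -0.28 (limma adjusted p = 0.064; 0.033 without mini-muscle replicate 5), with 2 of its 5 other probe sets called lower. Foxo4, a transcription factor that Akt keeps out of the nucleus, fell by 0.42 (limma adjusted p = 0.036), with -0.19 at its other probe set, not called. That call was lost after median centring (0.16), and without any 1 of mini-muscle replicates 1, 2, 4, 5 and 6 or regular-muscle replicates 2, 3 and 6 (0.058 to 0.1002). Eif2b5, the catalytic subunit of the exchange factor eIF2B, rose by 0.41 (limma adjusted p = 0.014; 0.056 after median centring), with -0.22 at its other probe set, which did not pass (adjusted p = 0.87).

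**Figure D4:**
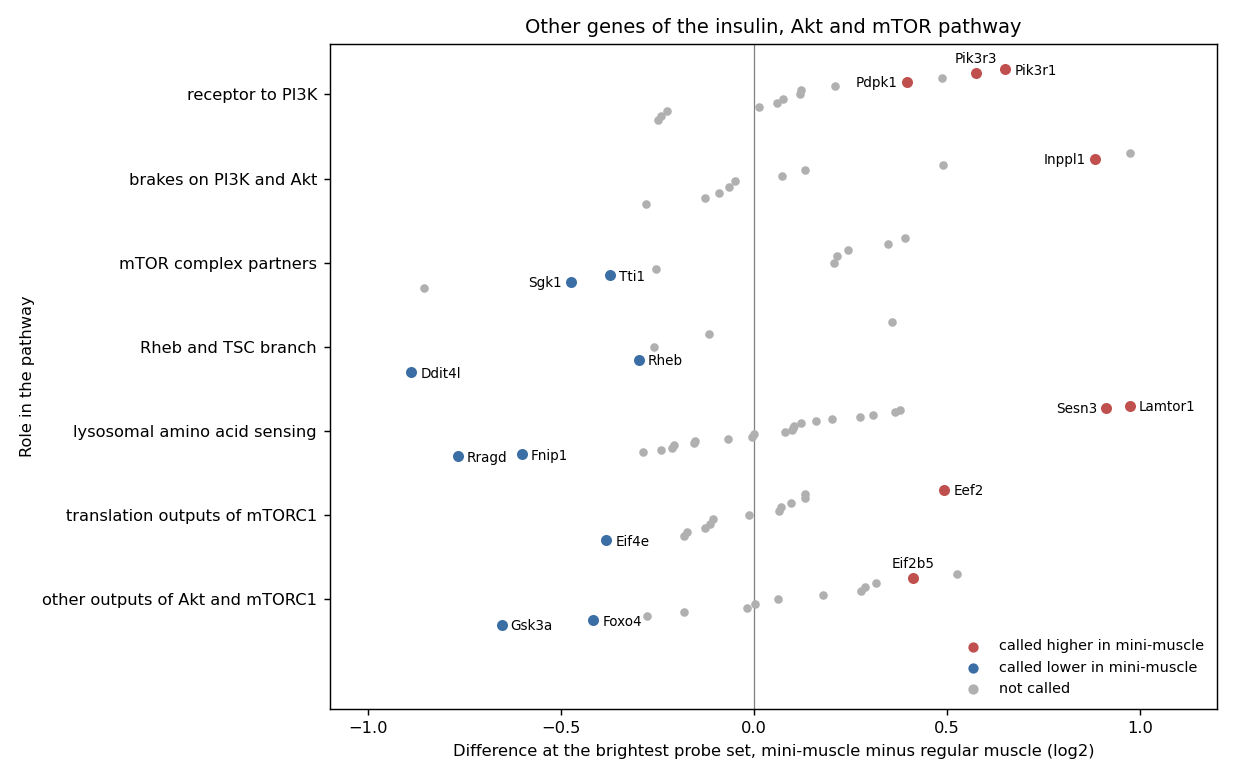
Difference in log2 intensity at the brightest probe set of 87 other pathway genes, grouped by role, 1 point per gene. The 8 genes called higher and 9 called lower are named, and calls in both directions occur in the last 3 rows.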

How the data were processed

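Per the submitters' processing notes MAS5 was used, and the authors deposited its intensities on a linear scale. Arrays were hybridised with biotin-labelled cRNA of 5 µg total RNA per the labels' protocols; MAS5's version and settings were not given in the sources used here. The mean of each array without the lowest and highest 2% of values was 800.0, so the deposited intensities had been scaled to 1 target. Intensities were taken to log2 with no offset. Of 45101 probe sets, 45037 remained without Affymetrix controls, 34945 of them with 1 gene in the platform annotation. All were fitted with limma (version 3.58.1, R 4.3.3; lmFit, then eBayes with trend on mean intensity; two-sided tests) and adjusted by Benjamini-Hochberg, with calls at adjusted p under 0.05. No filter was applied. Dim means below the median of the probe set means (log2 7.62). The brightest probe set of a gene has the highest mean over all arrays. Ratios within an array were compared by exact permutation of the 12 arrays, adjusted over the 3 ratios run. Their 95% intervals use the pooled SD. The ratio of Eif4ebp1 to Rps6kb1 could not be run.

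Array medians were 211.9 to 275.2 intensity units, and arrays correlated at 0.852 to 0.878 within groups and 0.838 to 0.869 between them, over all probe sets on the log2 scale. Arrays have no sequencing depth, and their number limits the precision. Replicate numbers only name the arrays. In simulated data, 200 of 45037 probe sets were changed, all of them above the median brightness. There 26% of 1.5-fold and 44% of 2-fold changes were called, with 0 errors of sign and 1 unchanged probe set called. Only 71 probe sets were called in the simulation, beside 3208 in the data. Its adjusted threshold was thus stricter, and these percentages are not the share found in the data. A probe set that was not called may still differ. Members, gene lists and tests were chosen with earlier results of these data known. Named genes are all members, up to 4 genes of each pathway role with the smallest adjusted p, and the 3 most similar genes of 3 member probe sets. Alternatives were quantile normalization, median centring, an offset of 64, leaving out dim probe sets, no intensity trend, 1 probe set per gene with dim genes left out, the mean of a gene's probe sets, and leaving out each array.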

Additional observations from a re-analysis of the deposited data

Results flagged for a closer look

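4 of the 58 groups of 6 arrays looked at (both groups for each of the 26 probe sets and 3 ratios) held an array far from the other 5, where chance flags about 1 in 20. Regular-muscle replicate 3 was the lowest of its group for Akt1 at 1416657_at (9.52, next array 10.10) and for Rptor at 1434619_at (9.94, next array 10.25). Without it Akt1 differed by 0.10 and was still not called (limma adjusted p = 0.80), and Rptor differed by 0.46 and was still called (limma adjusted p = 0.032). Mini-muscle replicate 3 was the lowest of its group for Akt1 at 1425711_a_at (7.86, next array 8.67). Regular-muscle replicate 4 was the highest of its group for Akt2 at 1455703_at (9.70, next array 8.94).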

How the results depend on the processing

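The count of called member probe sets was 5 to 7 under 5 of the 6 other ways of fitting and 5 to 6 without any 1 array. It was 2, both of Akt2, with no intensity trend, where calls over all probe sets fell from 3208 to 1424 and those among other pathway genes from 17 to 6. After median centring these were 2085 and 9. With probe sets averaged per gene the 3 ratios kept their sign and did not pass (0.12 for Akt2 over Akt1, -1.08 for Rictor over Rptor and -0.50 for Tsc1 over Tsc2). Without 1 array they were 0.28 to 0.47, -0.67 to -0.45 and -1.07 to -0.77. The number of within-gene comparisons that passed was 0 after quantile normalization, 0 with the offset of 64, and 0 to 3 without 1 array. The cause was not tested. Among probe sets that were not called, Akt1 1440950_at turned to 0.0042 after median centring and Tsc1 1439989_at to 0.14 with the offset. Without 1 array 7 changed sign: Akt1 1440950_at (-0.35 to 0.30), Akt2 1455703_at (-0.19 to 0.088), Mtor 1446185_at (-0.74 to 0.18), Rptor 1458472_at (-1.004 to 0.084), Rictor 1435698_at (-0.083 to 0.021) and 1427583_at (-0.42 to 0.094), and Tsc1 1439989_at (-0.58 to 0.36). Brightness limits what can be seen: the median SE was 0.20 above and 0.69 below the median brightness. No paired analysis was possible because the labels give the arrays no shared replicate numbers.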
